A study of Homo sapiens with 6 samples.

Results

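The genes described here are 9 transcription factors of neural development, chosen as LIM homeobox genes or as factors of the rhombic lip or of Group 4 medulloblastoma: LHX1, LHX2, LHX5, LHX9, LMX1A, LMX1B, EOMES, BARHL1 and PAX6. They were found by gene symbol and not by their values. Of the 9, 7 had a row among the 31785 rows of the deposited expression table, and LHX1 and LHX5 were not analysed here. The assay was RNA sequencing of D283 Med, an established line of childhood medulloblastoma, a cerebellar tumour. The 3 knockdown libraries (KD) came from D283 Med cells labelled as knockdown of Musashi-1, the product of MSI1, which binds RNA and is a marker of neural stem cells, and the 3 wild-type libraries (WT) came from D283 Med cells labelled WT. Cells of both groups were grown in the same serum-containing medium. The method of knockdown, any control construct in the WT cells and any origin of replicate libraries in separate cultures are not stated in the labels, so p-values measure the spread between these libraries, which may be partly technical.

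LIM homeobox proteins bind DNA through a homeodomain and bind partner proteins through a pair of LIM domains; the LDB proteins bridge them into larger complexes, and LMO proteins, which have LIM domains but no homeodomain, compete for the same bridge. In the developing cerebellum, the rhombic lip gives rise to the glutamatergic neurons, among them granule cells and unipolar brush cells, whereas LHX1 and LHX5 mark Purkinje cells, which are GABAergic. LMX1A, LHX2 and EOMES have been named in the literature as core transcription factors of Group 4 tumours.

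Of the 7 member genes in the table, LHX2 alone was expressed above the level needed for the main test, and it was higher in knockdown, by 2.15-fold. The other 6 were below that level, with 0 to 31 reads per library. Of the 3 Group 4 factors named above, LHX2 was expressed, EOMES had few reads and LMX1A was at or below 2 reads in every library.

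The 250 bases upstream of the RefSeq start site of LHX2, on the plus strand of GRCh38.p14 at chr9:124011518-124011767, are shown because LHX2 is the member whose level differed. Capitals mark its single CCAAT box, a common promoter element.
LHX2 upstream: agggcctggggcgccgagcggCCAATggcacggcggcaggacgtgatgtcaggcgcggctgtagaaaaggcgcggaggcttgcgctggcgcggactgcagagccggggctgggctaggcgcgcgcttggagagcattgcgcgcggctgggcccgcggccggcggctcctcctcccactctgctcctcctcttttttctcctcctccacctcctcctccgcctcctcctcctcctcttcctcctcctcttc
The window is rich in G and C (70.4%, with 25 CpG), against a median of 58.0% and 11 CpG over all promoter windows. CCAAT, read on both strands, was found in 32.0% of the 35116 RefSeq windows of the same length. The homeodomain core TAATTA, which reads the same on both strands and which LIM homeodomain proteins can bind, was in 4.35% of windows and in none of the members' windows. TAATCC, the core that OTX proteins bind, was in 5.62% of windows and likewise in none of the members'. A match, or the lack of one, describes these letters only.

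Musashi-1 binds RNA with a UAG core, and the reported consensus is a G or an A, then 1 to 3 U, then AGU. Sites with these letters, written as DNA on the transcript strand, were sought in the 3′ UTR of the longest annotated transcript of each member. The site in LHX2, which starts at base 443 of a 594-base 3′ UTR, is shown with those of LMX1B and the first site of EOMES because Musashi-1 is the protein the study targeted; capitals mark the motif.
LHX2: ttgttactttgaATAGTcctaaaaagaaaa
LMX1B, base 2748: gccccttattttATAGTtggaaaccctgag
LMX1B, base 2800: tccaaggtccggGTTAGTgacagagctgag
EOMES, base 520: tttgtgaaagtgATAGTttcacctgacttt
LHX2 held 1 site, or 1.68 per kilobase, against a median of 1.60 per kilobase over 11389 kept coding genes, of which 73.6% held at least 1. Among the 1899 kept genes with a 3′ UTR of 400 to 800 bases, 50.8% held at least 1. LHX9 held 19 sites in 6217 bases, PAX6 14 in 5142, EOMES 3 in 1121, LMX1A 2 in 2013, LMX1B 2 in 4581 and BARHL1 1 in 744. A site in the sequence does not show that Musashi-1 was bound there in these cells.

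Depth was 18895997 to 24442276 reads per KD library and 17299671 to 38790342 per WT library. Libraries of a group correlated across genes with r of 0.988 to 0.994 in KD and 0.978 to 0.985 in WT. The targeted gene was checked first: MSI1 (chr12:120341330-120369180, minus strand) had 1385, 1197 and 1281 normalised reads in KD 1, 2 and 3, against 1586, 1572 and 1378 in WT 1, 2 and 3. The groups overlapped, and the difference of −0.21 (SE 0.12) had an adjusted p of 0.304 in limma. The knockdown of MSI1 mRNA itself thus did not pass the test, here or in any of the 16 alternative fits. MSI2, its paralog, had 6202 ± 915 in KD and 8255 ± 1691 in WT (SD, n = 3 each; limma, adjusted p = 0.198). Differences here and below are KD minus WT on the deposited log2-like scale, which understates the change of weakly expressed genes, while normalised reads and folds come from inverting that scale.

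LHX2, a LIM homeobox factor known for its part in forebrain, eye and hair follicle development, lies on the plus strand of chromosome 9 at chr9:124001670-124033301 (GENCODE 29 on GRCh38) and has 5 exons. It had 281.3, 427.6 and 280.1 normalised reads in KD 1, 2 and 3, against 171.3, 161.5 and 128.2 in WT 1, 2 and 3. Every KD library was above every WT library, and KD 2 stood above the other KD libraries. The reads behind these values were 278, 340 and 261 in KD and 117, 256 and 167 in WT. LHX2 averaged 329.6 ± 84.8 in KD and 154 ± 22.6 in WT (SD, n = 3 each). On the deposited scale the values were 8.58, 9.06 and 8.58 in KD and 8.08, 8.02 and 7.81 in WT. The difference was 0.77 (SE 0.16, 95% interval 0.41 to 1.12), with an adjusted p of 0.0318 in limma. In this comparison 1.78% of the 13558 tested genes were called higher in KD and 2.32% lower, and LHX2 ranked 113 by difference. KD was higher without overlap in 14.1% of genes and lower without overlap in 13.6%. In bulk RNA, a change in the share of cells that express a gene and a change in RNA per cell cannot be told apart.

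The call of LHX2 was lost without KD 1 (adjusted p = 0.0867), KD 2 (0.0938), KD 3 (0.0712), WT 2 (0.0677) or WT 3 (0.0565), all by limma, and kept without WT 1 (0.0364). The difference stayed between 0.61 and 0.85 in these fits and positive in all 16 alternative fits, of which 7 lost the call, with adjusted p over the 16 of 0.0116 to 1.00.

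**Figure D1:**
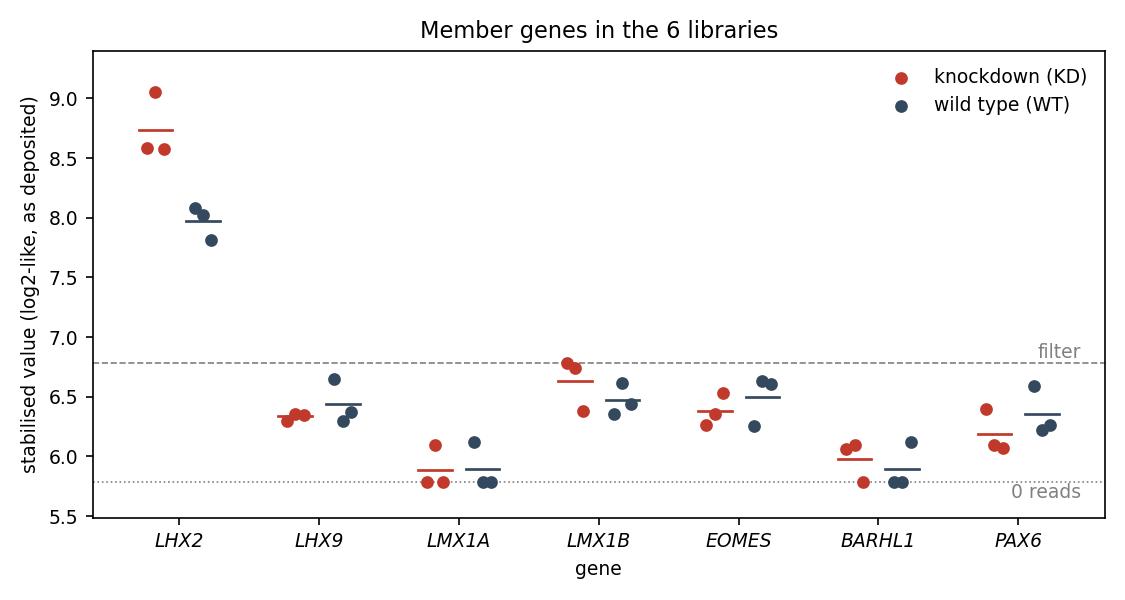
Deposited log2-like value (y axis) of each of the 7 member genes in the table (x axis) in every library, KD points left of WT points, with the group means as lines. LHX2 lies above the dashed filter level in all 6 libraries, at 8.58 to 9.06 in KD and 7.81 to 8.08 in WT, and the means of the other 6 genes lie between the dotted line of 0 reads and the filter level, with LMX1B nearest to the filter in KD 1 and KD 2.

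**Figure D2:**
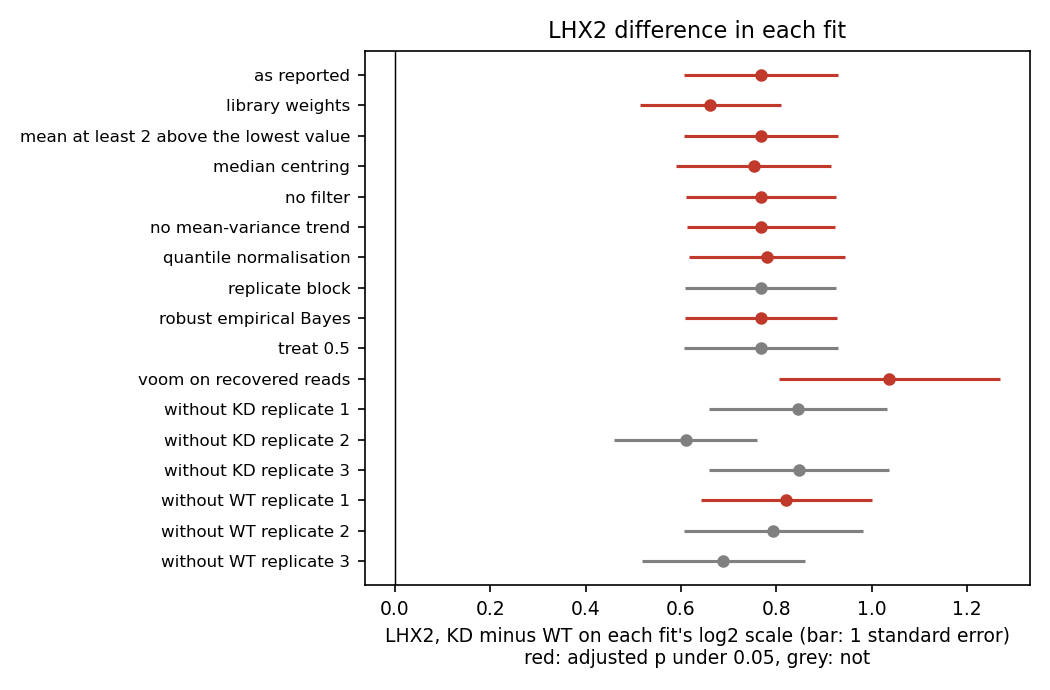
Difference of LHX2, KD minus WT (x axis, each fit's own log2 or log2-like scale), in the reported fit and in each alternative (rows); bars show 1 standard error and red marks an adjusted p under 0.05. The value is positive in every row, from 0.61 without KD 2 to 1.04 in the fit of recovered reads with limma voom.

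None of 4 neighbours of LHX2 on chromosome 9 passed the limma test, and 1 of them, NEK6, had an unadjusted p under 0.05. DENND1A, which lies upstream, had 1329 ± 58.6 normalised reads in KD and 1166 ± 60.7 in WT (difference 0.17, limma, adjusted p = 0.383), and NEK6, which lies downstream, had 1150.5 ± 64.5 in KD and 926.8 ± 69.4 in WT (difference 0.28, limma, adjusted p = 0.180). PSMB7, beyond NEK6, had 5880.2 ± 409 in KD and 5024 ± 271 in WT (difference 0.22, limma, adjusted p = 0.286). In each of these 3 genes every KD library was above every WT library, as in 14.1% of all tested genes. NR6A1, farther downstream, had a difference of −0.16 (limma, adjusted p = 0.535), with overlap. Of 549 tested genes on chromosome 9, 16 were called higher and 5 lower, and LHX2 ranked 10 among the 549 by difference. Over all tested genes, 1.78% were called higher and 2.32% lower. The median difference was 0.09 on chromosome 9 and 0.01 over all tested genes, and an effect of the region was not tested. Both antisense rows that overlap LHX2, AC006450.2 and AC006450.3, had between 0 and 3 reads in the KD libraries and 0 in the WT libraries. The sources used here do not state whether counting used strand.

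EOMES, also called TBR2, is a T-box factor of unipolar brush cells and of cortical intermediate progenitors. It had 6.07, 8.80 and 15.0 normalised reads in KD and 5.86, 19.6 and 18.4 in WT, from 6, 7 and 14 reads in KD and 4, 31 and 24 in WT. The groups overlapped. LMX1A, a factor of the roof plate and rhombic lip, had 2 reads in KD 2 and 2 in WT 1 and 0 in the other 4 libraries. Its counts lay below the 3-read floor, which is 3.04 to 3.77 normalised reads in KD and 1.89 to 4.39 in WT. LMX1B, its close relative and a factor of dopaminergic and serotonergic neurons, had 27.3, 25.2 and 9.66 normalised reads in KD and 8.79, 18.9 and 11.5 in WT. KD 1 and KD 2 were the highest of the 6, and KD 3 lay within the WT range.

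LHX9, the closest relative of LHX2, had 7.08, 8.80 and 8.58 normalised reads in KD and 20.5, 6.94 and 9.21 in WT. WT 1 stood apart at the top, with 14 reads, and the other 5 libraries lay close together. PAX6, a paired-box factor of granule cell precursors, had 10.1, 2.52 and 2.15 normalised reads in KD and 17.6, 5.05 and 6.14 in WT. The groups overlapped, through KD 1. At one end PAX6 overlaps ELP4, a subunit of Elongator on the opposite strand, which was far higher at 375 to 475 normalised reads in KD and 280 to 378 in WT, so that stray reads of ELP4 in the PAX6 row cannot be told apart from its own. BARHL1, a homeobox factor of granule cells, had 2, 2 and 0 reads in KD and 0, 0 and 4 in WT. In a fit without the filter, in which 2.07% of the 31785 rows were called in either direction, LHX2 was called and the other 6 were not. Their differences there ran from −0.17 for PAX6 to 0.16 for LMX1B, with adjusted p of 0.714 to 0.978 in limma. For EOMES the 95% interval was −0.42 to 0.19 and for LMX1A −0.26 to 0.24, on a scale that compresses changes at this depth, so that a change could not be detected rather than being absent.

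Among LIM homeobox genes the most abundant in D283 Med was LHX8, a factor of cholinergic forebrain neurons and oocytes, and LHX2 came after LHX8 and ISL2. Levels compared between genes are normalised reads per kilobase of transcript. LHX8 averaged 1620 in KD and 1651 in WT, ISL2 195 in KD and 168 in WT, and LHX2 129 ± 33.2 in KD and 60.2 ± 8.85 in WT (SD, n = 3 each). Below LHX2 lay LHX6, at 67.3 in KD and 57.6 in WT, and ISL1, at 77.2 ± 8.67 in KD and 47.2 ± 1.19 in WT, whose order was opposite in KD and WT. In WT the ranges of LHX2 (50.2 to 67.1) and LHX6 (48.7 to 69.1) overlapped, so their order there was within the spread, whereas in KD LHX2 (110 to 167) lay above LHX6 (59.9 to 76.6). LHX4 reached 18.6 in KD and 12.9 in WT, and the highest library of LMX1B, LHX3, LHX9 or LMX1A was at 4.70 in KD (LMX1B) and 4.34 in WT (LHX3). Of the summed family level, LHX2 made up 5.09%, 9.03% and 4.75% in KD and 3.15%, 2.94% and 2.90% in WT.

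**Figure D3:**
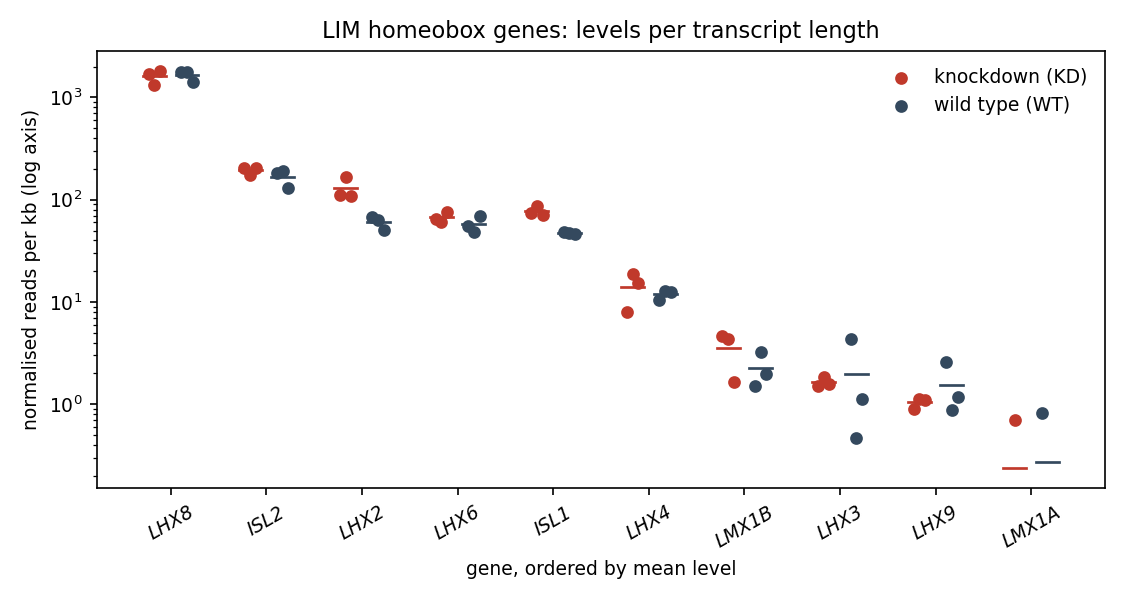
Normalised reads per kilobase of transcript (y axis, log scale) of the 10 LIM homeobox genes in the table, ordered by mean level (x axis), with KD points left of WT points and libraries at 0 not drawn. LHX8 is highest in every library, and the KD and WT points of LHX2 and ISL1 are separate.

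Of 12 listed LIM homeobox genes, 10 were in the table and 6 were tested. LHX2 rose and none fell, where 1.78% of all tested genes were called higher and 2.32% lower. The median difference of the 6 was 0.17, against 0.01 over all tested genes. ISL1, a factor of motor and sensory neurons, had 183.2, 213.8 and 172.8 normalised reads in KD and 118.6, 116.7 and 112.8 in WT. The groups did not overlap, but its difference of 0.45 (SE 0.12) had an adjusted p of 0.0748 in limma, and none of the 16 alternatives called it. LHX8 had 4018, 3174 and 4344 in KD and 4167, 4226 and 3364 in WT, with a difference of −0.03 (95% interval −0.36 to 0.29; limma, adjusted p = 0.929). ISL2, LHX6 and LHX4 had differences of 0.18, 0.16 and 0.09, with adjusted p of 0.508, 0.543 and 0.795.

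Of the 10 listed cofactors through which LIM proteins act and LMO proteins, 9 were tested, LDB2 was below the filter, and none was called by limma or by limma voom on recovered reads. LMO4 and LMO1 were the 2 with an unadjusted p under 0.05; 5 differences were positive and 4 negative, with a median of 0.05. LDB1, the bridging cofactor, had 4093 ± 101 normalised reads in KD and 3543 ± 140 in WT (SD, n = 3 each; difference 0.20, limma, adjusted p = 0.288). LMO4, a LIM-only protein, had 1082 ± 23.1 in KD and 767 ± 117 in WT (difference 0.45, limma, adjusted p = 0.0748). LDB1 and LMO4 were higher in KD without overlap between groups, as were 14.1% of all tested genes. LMO1 had 234 ± 25.3 in KD and 357 ± 101 in WT, with overlap (difference −0.44, limma, adjusted p = 0.180).

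Among other genes of the rhombic lip and of the glutamatergic lineage, most of them transcription factors, 4 transcription factors rose and RELN, which encodes a secreted protein, fell. Of 29 listed, 27 were in the table and 20 were tested. Of these, 4 rose and 1 fell, where 1.78% of all tested genes were called higher and 2.32% lower. Among the 20, 12 differences were positive and 8 negative, and the median was 0.01, as over all tested genes. The 4 that rose were UNCX, EBF3, ZIC2 and ZIC5. UNCX, a paired-type homeobox factor of somites and neurons, had 188.2, 354.6 and 155.6 normalised reads in KD and 35.1, 27.8 and 25.3 in WT, a 7.92-fold difference of the means (233 ± 107 in KD, 29.4 ± 5.11 in WT; difference 1.52, SE 0.20, limma, adjusted p = 0.00672). As with LHX2, KD 2 was the highest library. EBF3, a helix-loop-helix factor of neuronal differentiation, had 191.3, 162.2 and 148.1 in KD and 35.1, 51.7 and 18.4 in WT (4.76-fold; difference 1.17, SE 0.16, limma, adjusted p = 0.00672). Every KD library was above every WT library.

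ZIC2 and ZIC5, zinc-finger factors that lie beside each other on chromosome 13, rose as well. Their WT means, 22.4 normalised reads for ZIC2 and 20.7 for ZIC5, lay below the filter level of 27.6. Both genes thus entered the main test only through their KD values. In the fit without the filter they were called too (limma, adjusted p = 0.0139 for ZIC2 and 0.0431 for ZIC5). ZIC2 had 75.9, 85.5 and 77.3 normalised reads in KD and 17.6, 35.9 and 13.8 in WT (3.54-fold; difference 0.76, SE 0.14, limma, adjusted p = 0.0230). ZIC5 had 55.7, 70.4 and 60.1 in KD and 23.4, 16.4 and 22.3 in WT (3.00-fold; difference 0.60, SE 0.12, limma, adjusted p = 0.0316). Both lost their call when any single KD library was left out, with adjusted p of 0.0756 to 0.0875 for ZIC2 and 0.0968 to 0.110 for ZIC5, and ZIC5 also without WT 2 (0.0840); over all alternatives both ranged from 0.0133 to 1.00. With limma voom on recovered reads, whose log2 scale does not compress low values, the differences were 2.85 for UNCX, 2.29 for EBF3, 1.83 for ZIC2 and 1.56 for ZIC5. ZIC1 and ZIC4 did not pass the test, with differences of 0.02 (adjusted p = 0.957) and −0.34 (adjusted p = 0.194) by limma. ZIC4 was lower in KD without overlap. RELN, which encodes reelin, a secreted glycoprotein of granule cells that steers migrating neurons, was the gene of the list that fell, with 979.5, 494.2 and 817.7 normalised reads in KD and 1947, 3790 and 2059 in WT (difference −1.62, SE 0.26, limma, adjusted p = 0.0126).

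The most abundant factors of the lineage did not pass the test. OTX2, a homeobox factor amplified or highly expressed in many medulloblastomas, had 30373 ± 3590 normalised reads in KD and 23664 ± 3341 in WT (SD, n = 3 each; difference 0.36, limma, adjusted p = 0.229), with no overlap. TBR1, a T-box factor related to EOMES and expressed in glutamatergic neurons, had 6852 ± 1715 in KD and 6846 ± 1853 in WT (difference 0.01, 95% interval −0.49 to 0.50; limma, adjusted p = 0.993). The T-box gene of the glutamatergic lineage that D283 Med expressed was TBR1, at 5003 to 8708 normalised reads over the 6 libraries, whereas EOMES was at 5.86 to 19.6. WLS, a marker of the rhombic lip that carries Wnt proteins to the cell surface, had 5435 ± 1612 in KD and 8897 ± 2766 in WT (difference −0.70, limma, adjusted p = 0.137). WLS was lower in KD without overlap. Of the 20 tested genes of the list, 5 were higher without overlap and 3 lower, against 14.1% and 13.6% of all tested genes. Of 11 listed T-box genes 8 were tested and none was called by limma or limma voom, with 0 at an unadjusted p under 0.05 and a median difference of −0.03. Of 8 other PAX genes listed, PAX5 alone was tested, with a difference of 0.0022 (limma, adjusted p = 0.996).

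**Figure D4:**
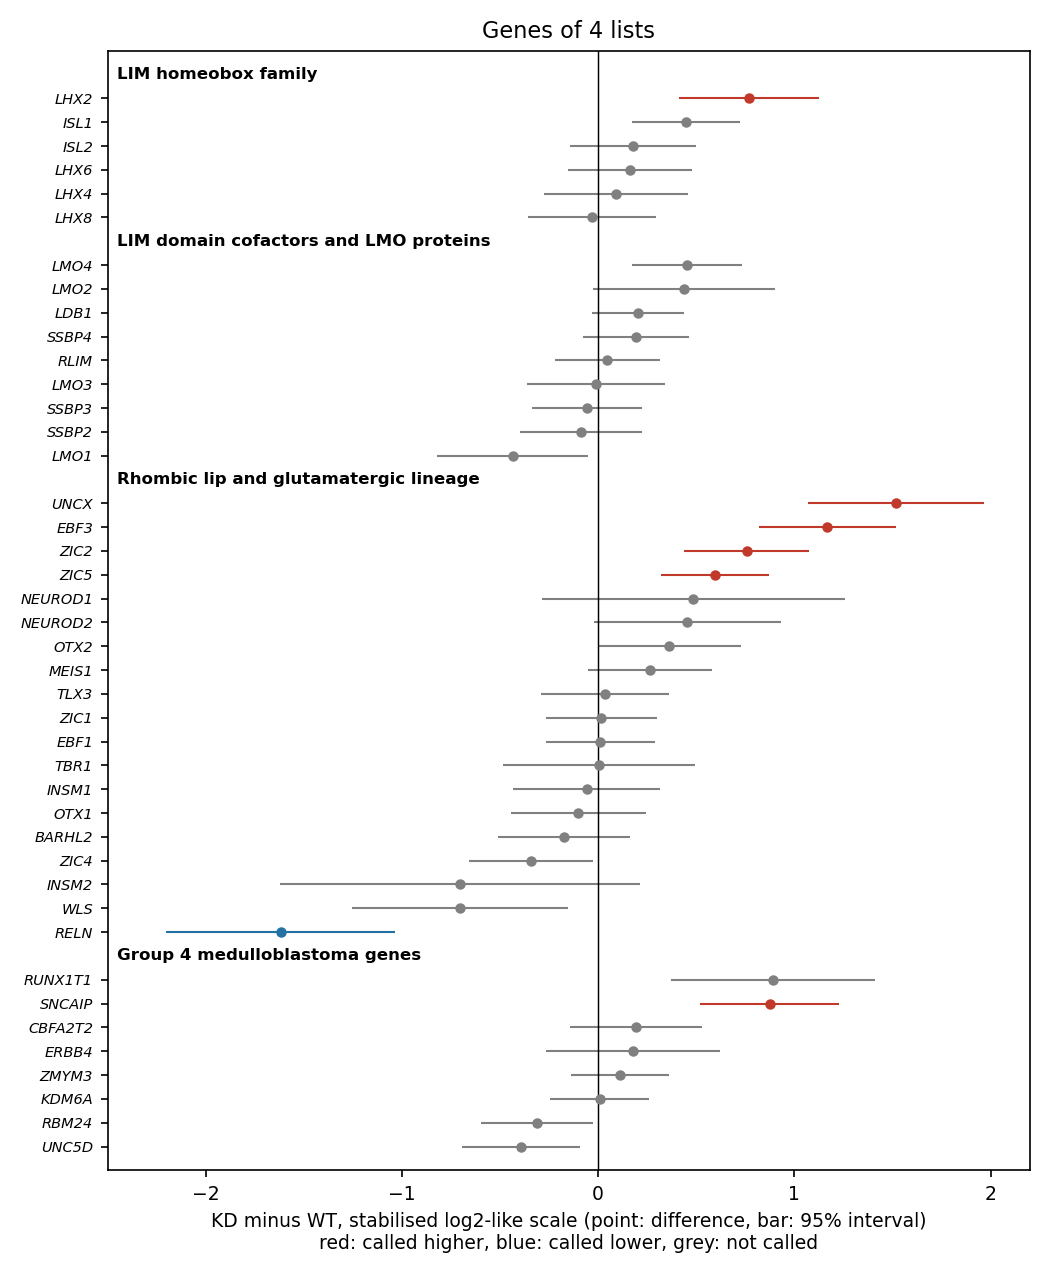
Difference KD minus WT on the deposited log2-like scale (x axis) with its 95% interval for tested genes of 4 lists (y axis), grouped by list; red marks genes called higher, blue genes called lower and grey the others. UNCX, EBF3, ZIC2, ZIC5, SNCAIP and LHX2 rose, and RELN fell, with the other points in grey.

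Of 15 listed genes marking or altered in Group 4 medulloblastoma, 14 were in the table and 8 were tested. SNCAIP, the synuclein-binding protein whose locus is duplicated in some Group 4 tumours, rose, and none fell; the median difference was 0.14. SNCAIP had 347.1, 280.4 and 367 normalised reads in KD and 172.8, 152.6 and 98.2 in WT (2.35-fold; difference 0.88, SE 0.16, limma, adjusted p = 0.0194). Its groups did not overlap. It lost its call without KD 1 (0.0961) and without KD 3 (0.0831), in a range of 0.00361 to 1.00 over the 16 alternatives. RUNX1T1, a transcriptional corepressor of the CBFA2T family, had 387 ± 89.8 in KD and 173 ± 84.3 in WT (SD, n = 3 each; difference 0.89, limma, adjusted p = 0.0624), and was called in 3 of the alternatives: without WT 2 (adjusted p = 0.0476), with library weights (0.0286) and without the filter (0.0221), in a range of 0.0221 to 1.00 over all 16. RBM24 and UNC5D, which mark the subgroup, had differences of −0.31 and −0.39, with adjusted p of 0.194 and 0.132 in limma. Both were lower in KD without overlap, as were 13.6% of all tested genes. PRDM6, GFI1 and GFI1B, which are activated by rearrangement in some tumours, were below the filter. Of 16 listed genes of the GABAergic lineage, 4 were tested and none was called by limma or limma voom, with 1 at an unadjusted p under 0.05; this was CALB1, a calcium-binding protein of Purkinje cells, which had 2728 ± 287 in KD and 5591 ± 2961 in WT (difference −0.88, limma, adjusted p = 0.111). Over all 7 lists, which held 98 genes, 55 were tested, 6 rose and 1 fell. Over all 13558 tested genes, 1.78% were called higher and 2.32% lower. The lists were chosen with earlier results of these data known, so their counts are a description only.

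**Figure D5:**
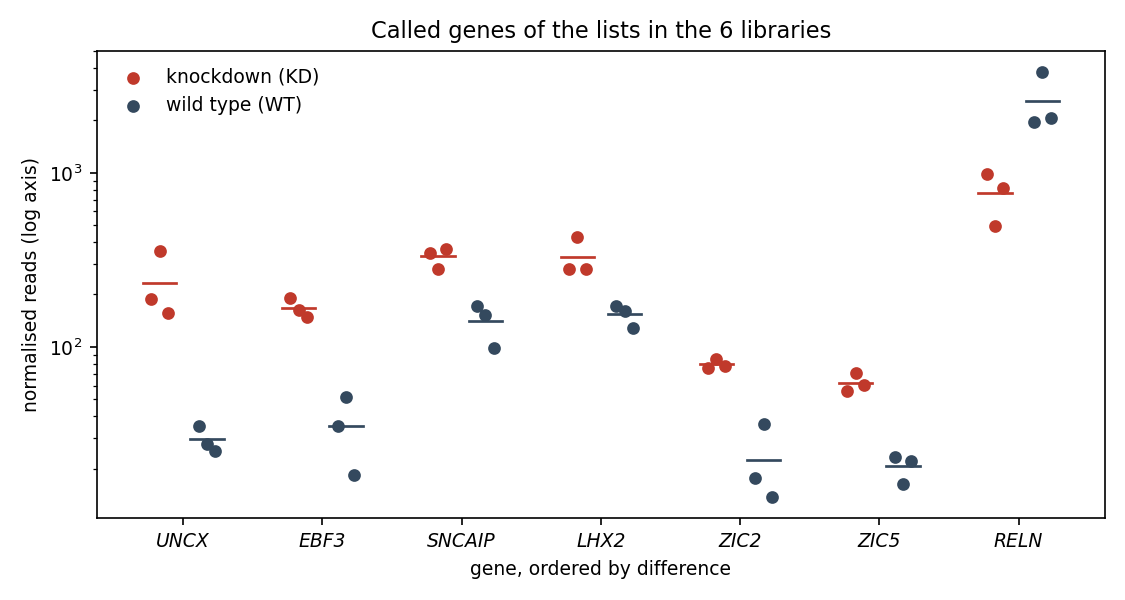
Normalised reads (y axis, log scale) of the 7 called genes of the lists, ordered by difference (x axis), in every library, KD points left of WT points. The groups are apart for each gene, with KD higher for 6 and WT higher for RELN.

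The genes most like LHX2 across the 6 libraries on the deposited scale, among 10870 candidates, were PASK (Pearson r = 0.996), HOXA13 (r = 0.993) and TTI1 (r = 0.991); this ranking describes these libraries, which share the difference between groups, and no test was made of it. HOXA13, a homeobox factor of distal limb and hindgut, had 257, 457.7 and 254.3 normalised reads in KD and 106.9, 93.3 and 84.4 in WT (3.40-fold; difference 1.14, limma, adjusted p = 0.0119). PASK, a sensor kinase, and TTI1, a chaperone subunit for PI3K-related kinases, had differences of 0.53 and 0.17, with adjusted p of 0.0584 and 0.369 in limma.

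Of the neural markers, OTX2, STMN1, NCAM1, ENO2 and SYP were expressed in every library, whereas TUBB3 had 5.03 to 16.2 normalised reads in KD and 10.2 to 41.4 in WT. DCX, also a neural marker, is described under other observations. The 6 Group 3 markers summed to 24018 to 27047 in KD and 25779 to 44373 in WT. Of these 6, 1 fell (NPR3, a natriuretic peptide receptor, difference −0.76, limma, adjusted p = 0.0437), where 2.32% of all tested genes were called lower. Among the 6, 1 difference was positive and 5 were negative. MAB21L2 had a difference of −0.64 (limma, adjusted p = 0.0621). NPR3 and MAB21L2 were lower in KD without overlap, as were 13.6% of all tested genes. The 4 Group 4 markers in the table summed to 263 to 300 in KD and 363 to 426 in WT. Summed levels of the lists for other cell types were 582 to 694 in KD and 477 to 1069 in WT for astrocytes (SLC1A3, which carried the sum, at 575 to 690.1 in KD and 467 to 1060.1 in WT, and GFAP at 1.01 to 6.44 in KD and 5.68 to 9.98 in WT), 6.44 to 20.1 in KD and 6.31 to 33.8 in WT for leukocytes (PTPRC at 0 in KD and 1.26 to 2.93 in WT), 716 to 1062 in KD and 993 to 1304 in WT for fibroblasts, and 160 to 313 in KD and 162 to 251 in WT for endothelial cells (VWF at 119 to 186 in KD and 98.4 to 201 in WT, KDR at 32.4 to 118 in KD and 45.3 to 111 in WT, and PECAM1 at 0 in KD and 0 to 3.07 in WT). The epithelial list, carried by KRT8, summed to 6070 to 9610 in KD and 4474 to 12060 in WT. None of the genes of these 5 lists was called by limma, and 0 had an unadjusted p under 0.05. Of the oligodendrocyte markers, MBP had 0 to 2.52 in KD and 0 to 7.68 in WT, and MAG 0 to 2.02 in KD and 0 in WT. The part of these markers in the differences of LHX2 and of the lists was not tested.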

How the data were processed

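Reads had been processed with STAR and DESeq on build GRCh38, beside CASAVA 1.8.2 and Trim Galore, per the submitters' processing notes, which give these names without their order. The sources used here do not state the read counter, annotation, strand setting or filters. The deposited table holds variance-stabilised, log2-like values, which the authors had normalised by library, going by the table's name and values. Columns headed as knockdown were KD; the other 3, whose heading the labels do not explain, were taken as WT by elimination. Inverting the stabilising function (lowest value 5.79, offset 55.2) gave normalised reads, and 100% of values became whole reads (tolerance 0.01) with 1 size factor per library, which gave the depth.

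KD minus WT was tested on the deposited log2 values with limma 3.58.1 in R 4.3.3 (mean-variance trend, two-sided, no covariates, Benjamini-Hochberg adjustment, threshold 0.05). The 13558 rows with a mean at least 1 above the lowest value (27.6 normalised reads) were tested and 18227 left out. An exact permutation test of 3 against 3 cannot go below 0.1. The fit was run on simulated data first, and as the outcome is not reported here, that run is not used as support. The members, lists and rule for naming genes (all members, MSI1, called list genes and the 3 genes most like a called member) were chosen with earlier results of these data known; other genes were named after their values were seen, and some genes of the lists are not reported here. The 16 alternative fits changed the filter, scaling, variance model, weights, block, minimum difference, unit or libraries. Coordinates and transcript lengths are from GENCODE 29, matched by name, and promoter windows from RefSeq on GRCh38.p14; all 7 members matched both. Intervals and floors cover counting error or the spread between libraries only.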

Additional observations from a re-analysis of the deposited data

How the results depend on the processing

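None of the differences recomputed under the 16 alternatives (those of the called list genes, ISL1, LMO4, RUNX1T1 and MSI1) reversed. Genes called higher numbered 242, and 532 with library weights, 101 with the replicate block, 0 with a minimum difference of 0.5 (limma treat) and 25 to 329 when a library was left out. Genes called lower numbered 314, and 681, 120, 1 and 31 to 397 under the same changes. The LHX2 call, 1 member called higher, became 0 with the replicate block (difference 0.77, limma, adjusted p = 0.0505) and with the minimum difference (0.77, limma treat, adjusted p = 1.00), and was 0 to 1 when a library was left out, with differences of 0.61 to 0.85. List genes called higher numbered 6, and 2 with a filter of 2 above the lowest value (which left UNCX, EBF3, ZIC2 and ZIC5 untested), 0 with the minimum difference and 2 to 6 when a library was left out. List genes called lower numbered 1, and 3 with library weights, 0 with the minimum difference and 1 to 3 when a library was left out. With limma voom on recovered reads the difference of LHX2 was 1.04 and that of RELN −1.78, and each list gene called in the main comparison was called.

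The labels' numbers were not taken to pair the libraries: deviations of same-numbered libraries correlated at −0.0045, −0.25 and 0.0046. With the replicate block, ZIC5 also lost its call (limma, adjusted p = 0.0804). Depth limits the 6 members with 0 to 31 reads per library, for which a change of moderate size could not be detected.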

Other observations

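DCX, which encodes doublecortin, a microtubule protein of migrating neuroblasts, was chosen after its values were seen. It lay below the filter and so outside the main test. It had 52.6, 55.3 and 60.1 normalised reads in KD, from 52, 44 and 56 reads, and 2.93, 15.1 and 1.54 in WT, from 2, 24 and 2 reads. Every KD library was above every WT library. In the fit without the filter its difference was 0.96 (SE 0.16, limma, adjusted p = 0.00249), where 2.07% of the 31785 rows were called. DCX was 1 of 7 listed neural markers. Among the 5 of them that were tested, 2 differences were positive and 3 negative, and none was called. NCAM1 was lower in KD without overlap (difference −0.73, limma, adjusted p = 0.0621). TUBB3, also below the filter, had a difference of −0.28 in the fit without it, with overlap.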
